A study of Mus musculus with 15 samples.

Results

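The 10 genes described here act in metal binding, copper transport and amine oxidation and were measured in primary mouse lung cells: the metallothioneins Mt1 and Mt2, the copper transport genes Slc31a1, Atp7a, Atp7b, Atox1 and Ccs, and the amine oxidases Aoc3, Maoa and Maob. Every probe that is not a control and carries one of these symbols was taken, which gave 12 probes for 10 genes among 55681 probes, or 10 of 46287 features after each gene was reduced to one probe. Mt1 and Aoc3 had 2 probes each. The groups were primary alveolar type II (ATII) cells given 1 mM β-aminopropionitrile (BAPN) for 24 h (4 arrays), ATII cells given vehicle, which was phosphate-buffered saline (4 arrays), primary lung fibroblasts given 1 mM BAPN for 24 h (3 arrays) and fibroblasts given vehicle (4 arrays). ATII cells, the surfactant-producing cells of the alveolus, had been kept for 3 days at an air-liquid interface before treatment. Fibroblasts had gone through 3 or more passages and 24 h of starvation by then, so the cell types also differ in their culture. The labels give no strain, sex or age, and no genetic change in any group. Nor do they tie replicates to separate animals or cultures. The p-values therefore cover the spread among these arrays only, and that spread may be technical. BAPN is an irreversible inhibitor of lysyl oxidases, secreted copper enzymes by which collagen and elastin fibres become cross-linked, and the series asked whether it alters gene expression.

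Metallothioneins are small cysteine-rich proteins that bind zinc and copper, and their genes are induced by metals through the zinc-sensing transcription factor Mtf1 and by glucocorticoids. Copper enters cells through Slc31a1. The chaperone Atox1 carries it to the pumps Atp7a and Atp7b, which load secreted enzymes such as the lysyl oxidases in the Golgi and export any excess, and Ccs delivers it to the superoxide dismutase Sod1. Aoc3 is a copper-containing amine oxidase of the cell surface, while Maoa and Maob are flavin-dependent monoamine oxidases of the outer mitochondrial membrane.

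The upstream regions of Mt1 and Mt2 are shown because short metal response elements, the binding sites of Mtf1, are the best known control sequences of these genes. The windows run from 250 bases upstream of the RefSeq gene start through the first 30 bases from that start, on build GRCm38.p6 and the plus strand, at chr8:94178839-94179118 for Mt1 and chr8:94172368-94172647 for Mt2. The start of Mt1 lies 6471 bases from that of Mt2. Capitals mark TGCACNC or TGCGCNC, the core of the metal response element, found on either strand.
Mt1: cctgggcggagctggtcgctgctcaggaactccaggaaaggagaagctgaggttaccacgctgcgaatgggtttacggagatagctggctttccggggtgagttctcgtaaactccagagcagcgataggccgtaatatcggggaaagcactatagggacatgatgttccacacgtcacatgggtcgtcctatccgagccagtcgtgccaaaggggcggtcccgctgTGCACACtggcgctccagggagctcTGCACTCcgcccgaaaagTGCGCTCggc
Mt2: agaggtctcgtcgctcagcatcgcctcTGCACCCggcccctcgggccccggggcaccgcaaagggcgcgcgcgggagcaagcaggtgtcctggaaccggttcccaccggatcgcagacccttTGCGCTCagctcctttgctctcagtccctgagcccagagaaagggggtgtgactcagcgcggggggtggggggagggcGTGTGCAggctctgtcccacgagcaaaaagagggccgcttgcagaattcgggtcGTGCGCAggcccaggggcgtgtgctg
Mt1 held 3 matches, starting at -23, 3 and 21 relative to the gene start, and Mt2 held 4, starting at -223, -128, -50 and 5. Of all 32851 mouse windows of the same 280 bases, 24.1% held at least 1 match, 1.73% at least 3 and 0.405% at least 4. Windows were at hand for 7 of the 10 genes. Atp7a held 2 matches, at -132 and -120, Atp7b held 1, at -157, and Slc31a1, Atox1 and Maoa held 0. A match is a run of letters, not a site shown to be bound. The RefSeq start need not be the main start of transcription, which was not tested. Bases beyond the windows were not searched.

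Levels below are log2 processed intensities minus the 75th percentile of the array, so 0 is the 75th percentile, and a level of one probe cannot be set against that of another. All 12 probes were well above background on all 15 arrays. The arrays lay on 2 slides, and each slide held arrays of all 4 groups: slide 1 held 3 ATII BAPN, 2 ATII vehicle, 1 fibroblast BAPN and 2 fibroblast vehicle arrays, and slide 2 held 1 ATII BAPN, 2 ATII vehicle, 2 fibroblast BAPN and 2 fibroblast vehicle arrays. The cell labels were checked against marker genes. Sftpc, a surfactant protein of ATII cells, averaged 1.16 in vehicle ATII cells and -6.61 in vehicle fibroblasts, where it was well above background on 0 of 4 arrays. All 5 epithelial markers and 5 of 6 tested ATII markers were higher in ATII cells, but Slc34a2, a phosphate transporter of ATII cells, was well above background on 0 of 8 ATII arrays. Fibroblast markers were not absent from ATII cultures: all 8 were well above background there. Their summed log2 level was 9.35 to 9.85 in vehicle ATII cells and 9.61 to 10.1 in vehicle fibroblasts. That sum rests mostly on the brightest markers, such as Col1a2, with means of 8.78 and 8.75. Taken singly, 4 of the 8 were lower and 0 higher in vehicle ATII cells by limma. Macrophage and leukocyte markers were also above background in both cell types, with a summed log2 level of 4.90 to 5.61 in vehicle ATII cells and 6.17 to 6.46 in vehicle fibroblasts. Their part in the results below was not tested. In bulk RNA, fewer cells of a type and less RNA per cell cannot be told apart.

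Vehicle-treated ATII cells were first set against vehicle-treated fibroblasts. All 3 amine oxidases were lower in ATII cells, Aoc3 by 10.2-fold and Maob by 5.39-fold. The copper importer Slc31a1 and the copper pump Atp7a were higher in ATII cells, the copper chaperone Ccs was lower, and Mt1, Mt2, Atox1 and Atp7b did not pass the test. In all, 2 of 10 genes were higher and 4 were lower by limma with Benjamini-Hochberg adjustment at 0.05, against 14.5% of 32470 features higher and 16.9% lower (31.3% in both directions). All 6 of these genes had groups that did not overlap, 2 higher and 4 lower, as did 34.6% of all features, 15.4% higher and 19.2% lower. The 95% interval lay inside 2-fold for 6 of 10 members and for 57.8% of all features. The median log2 difference was -0.28 over the 10 genes and -0.13 over all features tested.

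Aoc3 was the member with the largest difference. Its levels were -2.44, -2.53, -1.48 and -1.88 in vehicle ATII cells and 1.51, 0.95, 1.30 and 1.32 in vehicle fibroblasts. Each ATII array lay far below each fibroblast array. The log2 difference was -3.35 ± 0.26 (SE), with an adjusted p of 3.81e-07 by limma. With BAPN the levels were -2.25, -1.42, -1.83 and -2.37 in ATII cells and 1.44, 1.21 and 1.72 in fibroblasts, a log2 difference of -3.43 ± 0.28 (SE) and 10.8-fold lower in ATII cells (adjusted p of 7.74e-07 by limma). These arrays share no sample with the vehicle arrays, but both comparisons came from the same fit. Whether same-numbered arrays share cultures was not settled. Within slides the vehicle difference was -3.36 on slide 1 and -3.34 on slide 2. With the mean of both Aoc3 probes it was -1.79 in vehicle cells and -1.55 under BAPN, which both passed, while the second probe alone did not pass in either. Aoc3 is known from smooth muscle, endothelium and fat, and markers of these cells moved with it only in part. Myh11, a smooth muscle myosin, had a log2 difference of -2.89 (adjusted p of 2.79e-08 by limma) and Fabp4, a fatty acid carrier of fat cells, one of -2.77 (adjusted p of 1.29e-05). Of 6 smooth muscle and pericyte markers 3 were lower and 2 higher, of 4 tested adipocyte markers 1 was lower, and of 4 tested endothelial markers 0 passed. The summed log2 level was 9.07 to 9.38 in vehicle ATII cells and 9.62 to 10.1 in vehicle fibroblasts for smooth muscle and pericyte markers. For adipocyte markers it was -0.84 to -0.51 in vehicle ATII cells and 0.21 to 1.03 in vehicle fibroblasts. In fibroblasts that sum rests mostly on Fabp4, with a mean of 0.012, beside -1.34 for Lep, the next brightest. The part of these cell types in the Aoc3 difference was not tested. By Pearson's r of levels over all 15 arrays, the genes most like Aoc3 among 17302 features were Sugp2 (0.99), Fmod (0.99) and Thy1 (0.99), and these points share the split between the cell types.

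Maob followed with the next largest difference. Its levels were -2.63, -2.49, -2.49 and -2.48 in vehicle ATII cells and -0.17, 0.19, -0.71 and 0.32 in vehicle fibroblasts. All ATII arrays lay below all fibroblast arrays, and the ATII levels were tight (SD of 0.072, n = 4) while those of fibroblasts were spread (SD of 0.46, n = 4). The log2 difference was -2.43 ± 0.18 (SE), with an adjusted p of 2.68e-07 by limma. With BAPN the levels were -2.59, -2.50, -2.35 and -2.40 in ATII cells and 0.59, 0.46 and 0.39 in fibroblasts, a log2 difference of -2.94 ± 0.19 (SE) and 7.68-fold lower in ATII cells (adjusted p of 1.15e-07 by limma). On slide 1 the vehicle difference was -2.12, and on slide 2 it was -2.74.

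Maoa differed less. Its levels were -1.51, -1.02, -1.52 and -1.59 in vehicle ATII cells and -0.90, -0.99, -0.66 and -0.26 in vehicle fibroblasts. The groups did not overlap, though ATII vehicle replicate 2 came within a small distance of the lowest fibroblast array. The log2 difference was -0.71 ± 0.18 (SE), or 1.63-fold lower in ATII cells, with an adjusted p of 0.00683 by limma. With BAPN the levels were -1.16, -1.12, -0.94 and -1.06 in ATII cells and -0.41, -0.74 and -0.26 in fibroblasts. That log2 difference was -0.60 ± 0.19 (SE), with an adjusted p of 0.0290. The call was lost under 9 of 20 alternatives: with normexp background correction (-0.34, adjusted p of 0.134), on slide 2 alone (-0.44, adjusted p of 0.621), with slide as a block (-0.55, adjusted p of 0.0578), with the replicate number as a block, and when any one of 5 of the 7 BAPN arrays was left out (fibroblast BAPN 1 or 4, ATII BAPN 1, 3 or 5; adjusted p of 0.0551 to 0.119). In vehicle cells the difference was -0.73 on slide 1 (adjusted p of 0.00891 by limma) and -0.68 on slide 2 (adjusted p of 0.216).

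**Figure D1:**
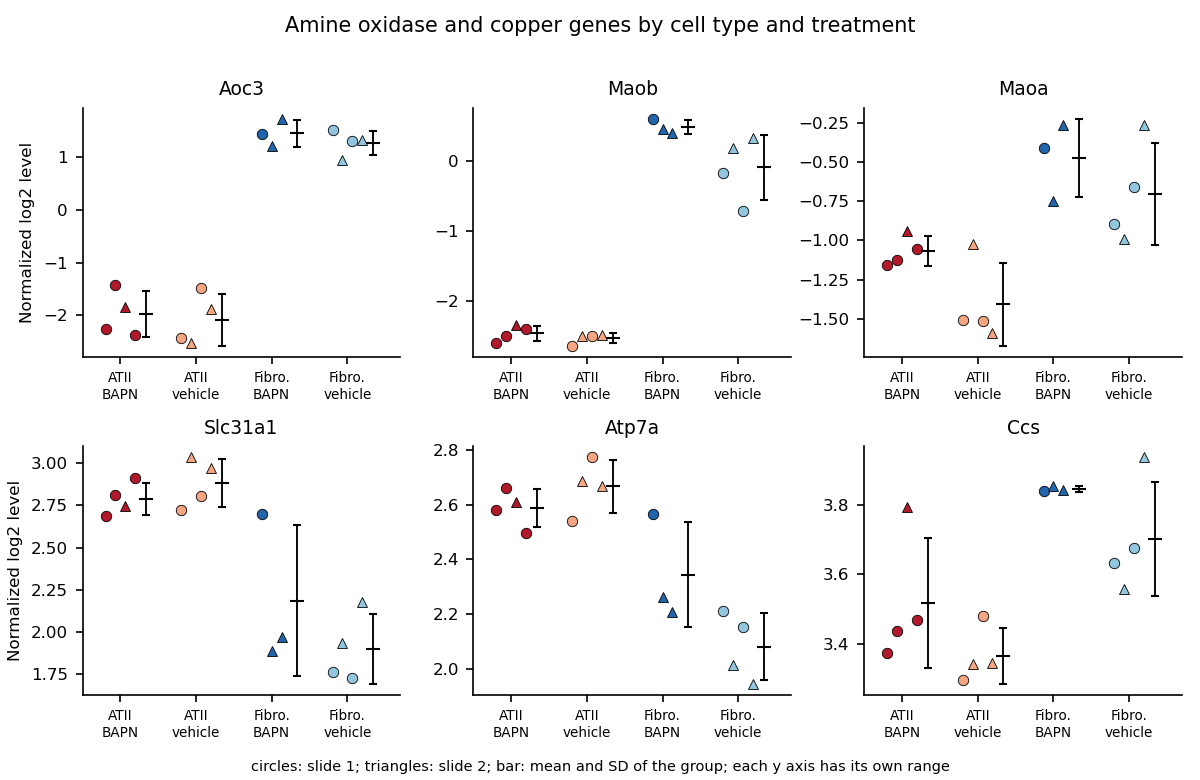
Normalized log2 level (0 is the 75th percentile of the array) of Aoc3, Maob, Maoa, Slc31a1, Atp7a and Ccs on each of 15 arrays, by group, with circles for slide 1, triangles for slide 2, and the mean and SD of each group beside the points. The 8 ATII arrays lie below the 7 fibroblast arrays for Aoc3, between -2.53 and -1.42 against 0.95 to 1.72, and for Maob, while vehicle ATII arrays lie above vehicle fibroblast arrays for Slc31a1 and Atp7a.

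The copper importer gene showed the opposite direction. Slc31a1 levels were 2.72, 3.04, 2.81 and 2.97 in vehicle ATII cells and 1.76, 1.94, 1.73 and 2.18 in vehicle fibroblasts. All ATII arrays lay above all fibroblast arrays. This gave a log2 difference of 0.98 ± 0.17 (SE), or 1.98-fold higher in ATII cells, with an adjusted p of 0.000503 by limma. Within slides it was 1.02 on slide 1 and 0.95 on slide 2. With BAPN the levels were 2.69, 2.81, 2.75 and 2.91 in ATII cells and 2.70, 1.89 and 1.97 in fibroblasts, where fibroblast BAPN replicate 1 reached the ATII range. The log2 difference under BAPN was 0.60 ± 0.18 (SE), with an adjusted p of 0.0230 by limma. It was 0.10 on slide 1, which held that replicate, and 0.82 on slide 2, with adjusted p-values of 0.595 and 0.0681. Without fibroblast BAPN replicate 2, fibroblast BAPN replicate 4 or ATII BAPN replicate 5 the adjusted p was 0.114, 0.102 and 0.0592. With the position correction, the replicate number as a block and only the arrays compared it was 0.0587, 0.131 and 0.0887 by limma. In all, the call was lost under 8 of 20 alternatives.

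Among the genes of copper export, Atp7a had levels of 2.54, 2.69, 2.77 and 2.67 in vehicle ATII cells and 2.21, 2.01, 2.15 and 1.95 in vehicle fibroblasts. The groups did not overlap. The log2 difference was 0.59 ± 0.11 (SE), higher in ATII cells, with an adjusted p of 0.000743 by limma. Within slides it was 0.48 on slide 1 (adjusted p of 0.0419) and 0.70 on slide 2 (adjusted p of 0.0277). With BAPN the levels were 2.58, 2.66, 2.61 and 2.50 in ATII cells and 2.57, 2.26 and 2.21 in fibroblasts. The groups then overlapped, and the log2 difference of 0.24 ± 0.11 (SE) had an adjusted p of 0.132.

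Atp7b, the related pump best known from liver, had levels of -2.50, -2.31, -2.38 and -2.33 in vehicle ATII cells and -2.48, -1.86, -2.38 and -1.74 in vehicle fibroblasts. The groups overlapped, with a log2 difference of -0.26 ± 0.28 (SE) and an adjusted p of 0.556 by limma.

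The chaperones differed little. Ccs levels were 3.29, 3.34, 3.48 and 3.34 in vehicle ATII cells and 3.63, 3.56, 3.68 and 3.94 in vehicle fibroblasts. No ATII array reached the fibroblast range. It had a log2 difference of -0.34 ± 0.11 (SE), or 1.26-fold lower in ATII cells, with an adjusted p of 0.0372 by limma. The call was lost within slide 1 (-0.27, adjusted p of 0.151), within slide 2 (-0.41, adjusted p of 0.167), and when any one of 6 of the 8 vehicle arrays was left out (all but fibroblast vehicle 2 and ATII vehicle 3; adjusted p up to 0.0950). It was also lost with no filter, the replicate number as a block and only the arrays compared (adjusted p of 0.0630, 0.0596 and 0.0533 by limma). That made 11 of 21 alternatives. Under BAPN the Ccs levels were 3.37, 3.44, 3.79 and 3.47 in ATII cells and 3.84, 3.86 and 3.84 in fibroblasts, with a log2 difference of -0.33 ± 0.12 (SE) and an adjusted p of 0.0598. Atox1 levels were 6.08, 6.05, 6.01 and 5.91 in vehicle ATII cells and 6.00, 5.87, 6.03 and 6.54 in vehicle fibroblasts. These overlapped, with a log2 difference of -0.10 ± 0.14 (SE).

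Neither metallothionein passed in vehicle cells by the probe that stood for the gene. Mt1 levels were 6.15, 6.19, 5.98 and 6.28 in vehicle ATII cells and 6.13, 6.38, 6.45 and 6.86 in vehicle fibroblasts. Most ATII arrays lay within the fibroblast range. The log2 difference was -0.31 ± 0.18 (SE), with an adjusted p of 0.236 by limma. With the mean of both Mt1 probes it was -0.91, which passed (adjusted p of 0.000215 by limma). Mt2 levels were 5.55, 5.28, 5.23 and 5.16 in vehicle ATII cells and 5.26, 5.21, 5.42 and 5.26 in vehicle fibroblasts. The groups overlapped and the log2 difference was 0.019 ± 0.16 (SE), with a 95% interval of -0.34 to 0.37.

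Under BAPN, 1 gene of 10 was higher in ATII cells than in fibroblasts (Slc31a1) and 3 were lower (Aoc3, Maoa and Maob), against 13.4% of 32268 features higher and 15.9% lower (29.3% in both directions). Groups that did not overlap were found for Atox1 (higher) and for Aoc3, Maob, Maoa and Ccs (lower), 5 of 10 members, against 34% of all features, 15.4% higher and 18.5% lower. The 95% interval lay inside 2-fold for 6 of 10 members and 53.5% of all features. The member median was 0.25, beside 0.012 over all features tested. Mt1 had a log2 difference of 0.39 ± 0.19 (SE) and Mt2 one of 0.42 ± 0.18 (SE), with adjusted p-values of 0.157 and 0.0970 by limma. Both passed with quantile normalization (0.52 and 0.50, adjusted p of 0.0177 and 0.0381). Both changed sign on slide 1 alone, to -0.11 for Mt1 and -0.072 for Mt2, and Mt1 did so with the mean of its probes, to -0.32.

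**Figure D2:**
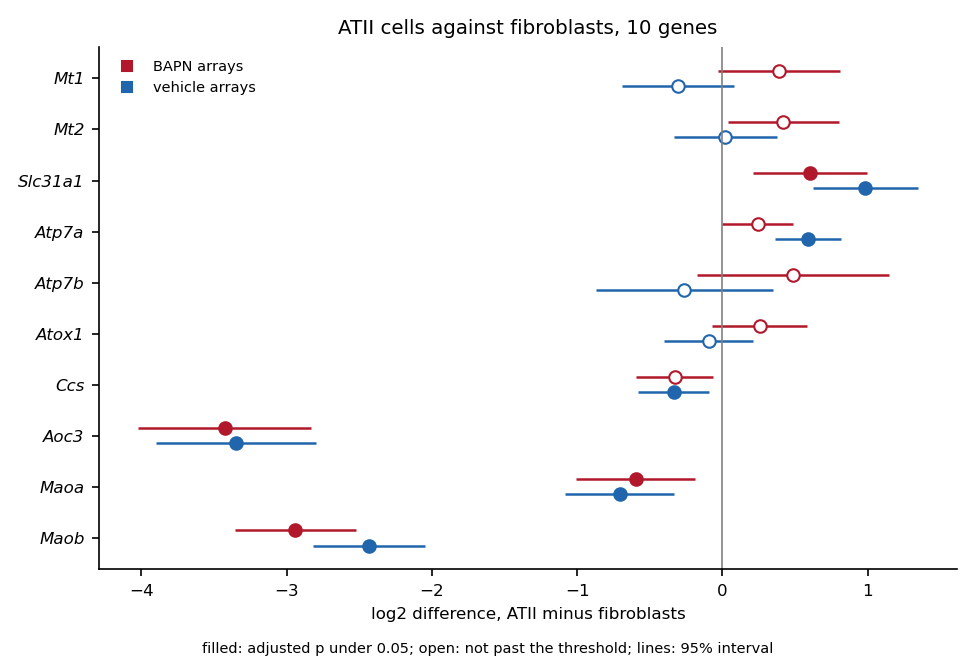
Log2 difference, ATII cells minus fibroblasts, of the 10 genes in BAPN arrays and in vehicle arrays, with 95% intervals from limma; filled points passed an adjusted p of 0.05. Aoc3, Maob and Maoa lie left of 0 and Slc31a1 lies right of 0 in both sets of arrays, at -3.43 and -3.35 for Aoc3.

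BAPN against vehicle in fibroblasts changed 1 of the 10 genes. Atp7b was 2.29-fold lower with BAPN, and 0 genes were higher. Over all 32255 features tested, 13.4% passed, 2.36% higher and 11.1% lower, so 1 lower gene in 10 is close to the share over all features. That split depended on the setting: it was 405 higher and 166 lower on slide 1 alone, 1893 and 3361 on slide 2 alone, 1415 and 3451 after a correction for position on the array, and 59 and 2297 with only the arrays compared, beside 762 and 3569 as tested here. The member median was 0.17, beside 0.023 over all features. A positive log2 change was seen in 9 of 10 members, and the share over all features was not counted. For Mt1, Mt2, Slc31a1, Atox1, Ccs, Aoc3 and Maoa the sign changed under 1 or more of 20 alternatives. For 9 of 10 members the 95% interval lay inside 2-fold, against 60.7% of all features. Groups that did not overlap were found for Atp7b (lower) and Maob (higher), 2 of 10 genes, while 24% of all features had such groups, 7.35% higher and 16.6% lower.

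Atp7b levels in fibroblasts were -2.77, -3.83 and -3.33 with BAPN and -2.48, -1.86, -2.38 and -1.74 with vehicle. All BAPN arrays lay below all vehicle arrays. The log2 change was -1.19 ± 0.31 (SE), with an adjusted p of 0.0241 by limma. The arrays separated by slide: the change was -1.78 on slide 2 (adjusted p of 0.00492 by limma) and -0.34 on slide 1 (adjusted p of 0.142), where 1 BAPN array stood against 2 vehicle arrays. With slide as a block it was -1.16 (adjusted p of 0.0301). The call was lost under 7 of 20 alternatives, among them the replicate number as a block, under which 0 features passed, and without fibroblast vehicle replicate 2 (-1.11), vehicle replicate 4 (-1.07), BAPN replicate 2 (-0.94) or BAPN replicate 4 (-1.18), with adjusted p-values of 0.0656 to 0.106. The probe lies in array column 136, on the side of the array with the higher column numbers, where 21.2% of features were called lower in this comparison, against 0.89% on the other side. The probes that stood for Atox1, Ccs, Aoc3, Maoa and Maob lie on that side too, in columns 122 to 148. Their log2 changes in this comparison were positive, from 0.025 to 0.57. After a correction for position on the array the Atp7b change was -1.04 (adjusted p of 0.0206 by limma).

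Maob levels in fibroblasts were 0.59, 0.46 and 0.39 with BAPN and -0.17, 0.19, -0.71 and 0.32 with vehicle. The BAPN arrays all lay above the vehicle arrays, and the vehicle arrays of slide 1 (-0.17 and -0.71) were the lowest. The log2 change was 0.57 ± 0.19 (SE), with an adjusted p of 0.0668, so it did not pass. It was 1.04 on slide 1 and 0.17 on slide 2, with adjusted p-values of 0.0662 and 0.478. After the position correction it was 0.73 with an adjusted p of 0.0191 by limma.

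The other fibroblast members did not pass. Slc31a1 had a log2 change of 0.28 ± 0.18 (SE), which was 0.95 on slide 1 (adjusted p of 0.0380 by limma) and -0.13 on slide 2 (adjusted p of 0.641). Atp7a had one of 0.26 ± 0.11 (SE), with an adjusted p of 0.151. Mt1 levels were 6.96, 6.30 and 6.26 with BAPN, beside the vehicle levels given above, and Mt2 levels were 5.87, 5.30 and 5.11. In both, fibroblast BAPN replicate 1 was the highest of its group. The log2 changes were 0.050 ± 0.19 (SE) for Mt1 and 0.14 ± 0.18 (SE) for Mt2, with 95% intervals of -0.37 to 0.47 and -0.24 to 0.52. Maoa, Aoc3, Ccs and Atox1 had log2 changes of 0.23, 0.19, 0.14 and 0.025.

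**Figure D3:**
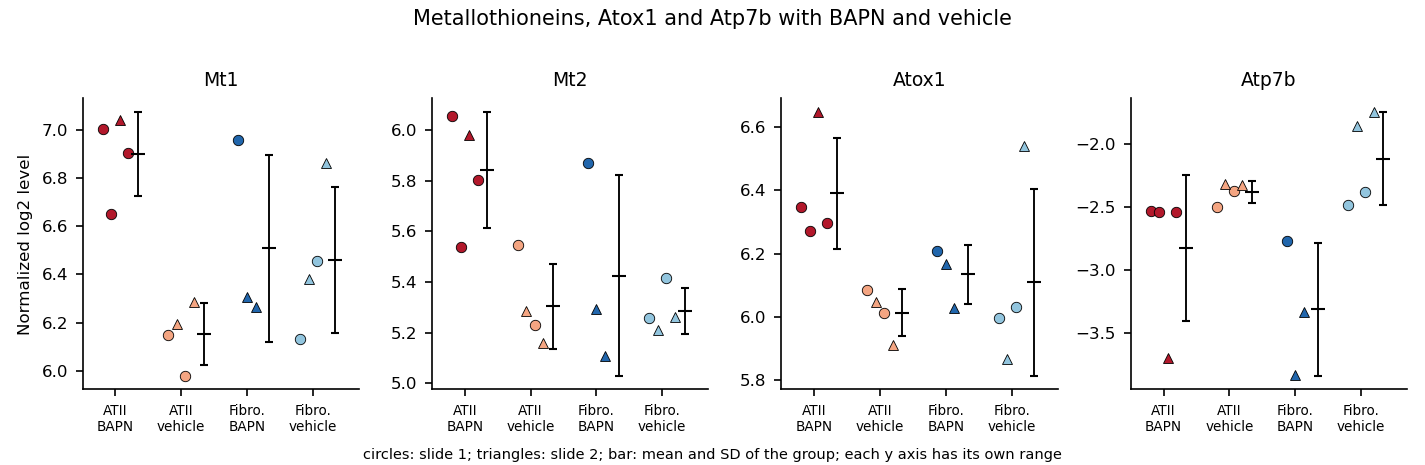
Normalized log2 level (0 is the 75th percentile of the array) of Mt1, Mt2, Atox1 and Atp7b on each of 15 arrays, by group, with circles for slide 1, triangles for slide 2, and the mean and SD of each group beside the points. All 4 ATII BAPN arrays lie above all 4 ATII vehicle arrays for Mt1 (6.65 to 7.04 against 5.98 to 6.28), and the 3 lowest Atp7b points are the BAPN arrays of slide 2.

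BAPN against vehicle in ATII cells changed 0 of 10 genes by limma at an adjusted p of 0.05, as it changed 0% of all 32045 features. At an unadjusted p under 0.05 by limma there were 3 of 10 members, Mt1, Mt2 and Atox1, and 3335 of 32045 features. Groups did not overlap for Mt1 and Atox1 (higher) and for Atp7b (lower), 3 of 10 members, against 9.1% of all features, 3.44% higher and 5.66% lower. The member median was 0.13, beside -0.00054 over all features. For 8 of 10 members the 95% interval lay inside 2-fold, against 69.9% of all features, the exceptions being Mt1 and Atp7b.

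Mt1 had the largest difference. Its levels in ATII cells were 7.002, 6.65, 7.04 and 6.90 with BAPN and 6.15, 6.19, 5.98 and 6.28 with vehicle. Every BAPN array lay above every vehicle array. The log2 change was 0.75 ± 0.18 (SE), a 1.68-fold higher level, with an unadjusted p of 0.00108 and an adjusted p of 0.463 by limma. The 95% interval ran from 0.36 to 1.13. Within slides the value was 0.79 on slide 1 and 0.80 on slide 2. Over 21 alternative settings it lay between 0.60 and 0.83, with adjusted p-values from 0.101 to 0.863.

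Mt2 levels in ATII cells were 6.06, 5.54, 5.98 and 5.80 with BAPN and 5.55, 5.28, 5.23 and 5.16 with vehicle. The groups overlapped by the lowest BAPN and the highest vehicle array. The log2 change was 0.54 ± 0.16 (SE), a 1.45-fold higher level, with an unadjusted p of 0.00589 and an adjusted p of 0.463 by limma. It was 0.41 on slide 1 and 0.76 on slide 2. As a description, the levels of Mt1 and Mt2 had a Pearson's r of 0.79 over the 15 arrays, and their deviations from the group means one of 0.64. These points share arrays and cell types.

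Atox1 levels in ATII cells were 6.35, 6.27, 6.65 and 6.30 with BAPN and 6.08, 6.05, 6.01 and 5.91 with vehicle. The groups did not overlap, and ATII BAPN replicate 4 was the highest. The log2 change was 0.38 ± 0.14 (SE), with an adjusted p of 0.463. Atp7b levels were -2.53, -2.54, -3.69 and -2.54 with BAPN and -2.50, -2.31, -2.38 and -2.33 with vehicle. The BAPN arrays lay below the vehicle arrays, 3 of them narrowly and replicate 4 by far. The log2 change of -0.45 ± 0.28 (SE) had an adjusted p of 0.488 by limma, and without that replicate it was -0.16. Replicate 4 is the only ATII BAPN array on slide 2, where the change was -1.37 (adjusted p of 0.0216 by limma), against -0.10 on slide 1. The remaining log2 changes in ATII cells were 0.34 for Maoa, 0.15 for Ccs, 0.11 for Aoc3, 0.065 for Maob, -0.080 for Atp7a and -0.096 for Slc31a1.

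**Figure D4:**
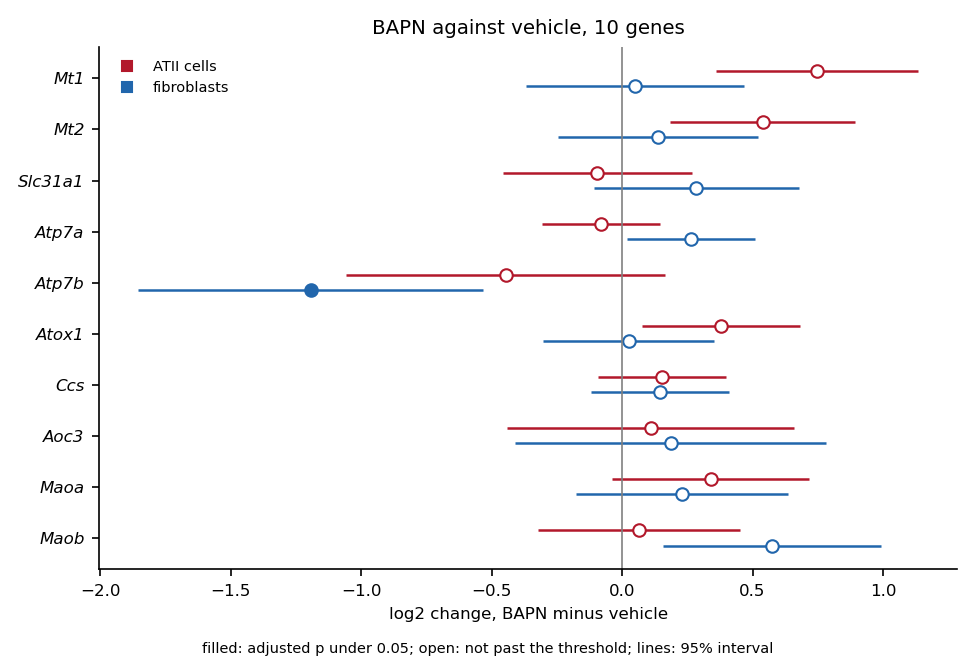
Log2 change, BAPN minus vehicle, of the 10 genes in ATII cells and in fibroblasts, with 95% intervals from limma; filled points passed an adjusted p of 0.05. Atp7b in fibroblasts, at -1.19, is the only filled point, and the intervals of Mt1, Mt2 and Atox1 in ATII cells lie right of 0.

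The difference between the BAPN effects, ATII cells minus fibroblasts, was tested directly. It passed for 0 of 10 members and 0% of 34287 features by limma. At an unadjusted p under 0.05 by limma there were 2 of 10 members, Mt1 and Atp7a, and 4723 of 34287 features. Mt1 had a difference of 0.70 ± 0.27 (SE) on the log2 scale, with an adjusted p of 0.282, and it was 0.13 on slide 1 and 1.14 on slide 2. Atp7a had one of -0.34 ± 0.16 (SE), with an adjusted p of 0.355. The BAPN effects on Mt1 in ATII cells and in fibroblasts are therefore not shown to differ. The member median was 0.059, beside 0.075 over all features, and the 95% interval lay inside 2-fold for 7 of 10 members and 45.6% of all features.

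The 2 probes of Mt1 gave different results from each other, as did those of Aoc3. The Mt1 probe that stood for the gene (A_66_P111660, RefSeq transcript NM_013602) lies at chr8:96704165-96704224 and the second (A_52_P423810, Ensembl transcript ENSMUST00000062980) at chr8:96703844-96703903, on the plus strand of build mm9 per the array design. Exon positions were not read, since no annotation of that build was used here. The second Mt1 probe had levels of -2.17, -2.78, -2.22 and -2.10 in vehicle ATII cells and -0.78, -1.01, -0.53 and -0.94 in vehicle fibroblasts. Its groups did not overlap, with a log2 difference of -1.50 ± 0.19 (SE), 2.84-fold lower in ATII cells, and an adjusted p of 3.01e-05 by limma with every probe a feature. Under BAPN it was -1.04 ± 0.20 (SE), with an adjusted p of 0.00133. For BAPN against vehicle it had a log2 change of 0.46 ± 0.19 (SE) in ATII cells (adjusted p of 0.467) and -0.0034 ± 0.20 (SE) in fibroblasts. Levels of the 2 Mt1 probes had a Pearson's r of 0.13 over the 15 arrays.

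The Aoc3 probe that stood for the gene (A_51_P378051, RefSeq transcript NM_009675) lies at chr11:101200545-101200604 and the second (A_55_P1958043, Ensembl transcript ENSMUST00000017316) at chr11:101203172-101203231, on the plus strand of mm9. The second Aoc3 probe had levels of -0.80, -0.87, -0.94 and -0.82 in vehicle ATII cells and -0.70, -0.52, -0.85 and -0.41 in vehicle fibroblasts. These overlapped, and the log2 difference of -0.23 ± 0.19 (SE) had an adjusted p of 0.393. Under BAPN it was 0.32 ± 0.20 (SE), with an adjusted p of 0.270 by limma. In fibroblasts its levels were -1.10, -1.81 and -1.63 with BAPN, below every vehicle array, with a log2 change of -0.89 ± 0.20 (SE) and an adjusted p of 0.0173 by limma. The second Aoc3 probe lies in array column 126, on the same side of the array as the Atp7b probe. The probe that stood for Aoc3 lies there too, in column 143, and its log2 change in fibroblasts was 0.19. Whether array position had a part in the change of the second probe was not tested. The 2 Aoc3 probes had a Pearson's r of -0.0034 over the 15 arrays.

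**Figure D5:**
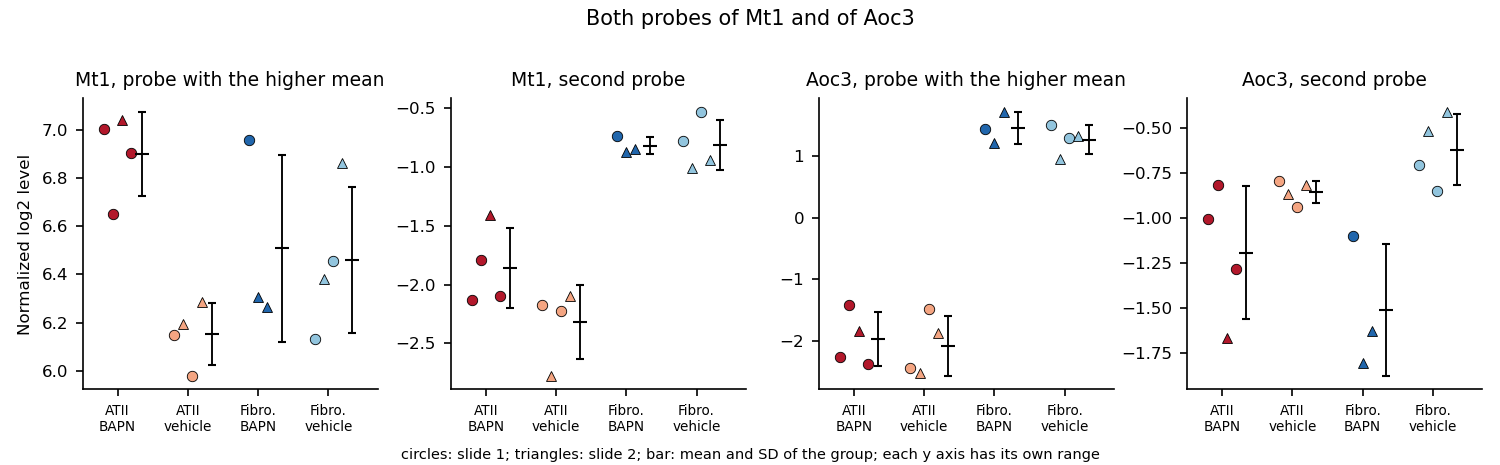
Normalized log2 level (0 is the 75th percentile of the array) of both probes of Mt1 and both probes of Aoc3 on each of 15 arrays, by group, with circles for slide 1, triangles for slide 2, and the mean and SD of each group beside the points. The second Mt1 probe separates the cell types, at -2.78 to -1.41 in ATII cells against -1.01 to -0.53 in fibroblasts, while the other Mt1 probe does not, and the second Aoc3 probe lacks the split of the first.

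Further genes were read against the shares over all features, 14.5% higher and 16.9% lower between the cell types in vehicle and 2.36% higher and 11.1% lower with BAPN in fibroblasts. The share called lower with BAPN in fibroblasts varied with mean level and array side, as given above for Atp7b. Of 25 tested genes of copper distribution and copper enzymes other than the members, 4 were higher and 6 lower in vehicle ATII cells, with a median log2 difference of -0.098, beside -0.13 over all features. F5, a coagulation factor, was 3.23-fold higher in ATII cells and Cutc, a copper-binding protein, 2.12-fold higher (adjusted p of 0.000245 and 0.000680 by limma). Heph, a copper-dependent ferroxidase, was 2.65-fold lower and Pam, a copper enzyme that amidates peptides, 1.64-fold lower (adjusted p of 7.91e-05 and 0.00145). With BAPN in fibroblasts 1 of 25 was higher and 2 were lower. Slc31a2, a relative of Slc31a1, was 1.42-fold higher (log2 change of 0.50 ± 0.13 SE, adjusted p of 0.0226). Cox17, which carries copper to cytochrome c oxidase, was 2.19-fold lower (adjusted p of 0.0248). Dbh, the copper enzyme that makes noradrenaline, was not well above background on any BAPN array and was at least 2.00-fold lower, a bound against the lowest signal above background (adjusted p of 0.0226), with a mean of -5.99 with BAPN and -4.30 with vehicle.

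Among 25 tested genes of zinc handling and metal response, 7 were higher and 6 lower in vehicle ATII cells, against 14.5% and 16.9% of all features, with a median log2 difference of 0.0068, beside -0.13 over all features. The zinc importer Slc39a4 was 45.4-fold higher in ATII cells, with a mean of 4.39 ± 0.42 against -1.11 ± 0.45 in fibroblasts (SD, n = 4 each) and an adjusted p of 2.09e-08 by limma. Its relatives Slc39a8 and Slc39a10 were 3.21-fold and 2.11-fold higher, and Fth1, the heavy chain of the iron store ferritin, was 2.31-fold lower (adjusted p of 0.000219, 0.00242 and 1.62e-06). With BAPN in fibroblasts 0 of 25 were higher and 2 lower, against 2.36% and 11.1% of all features: the zinc importer Slc39a2 by 1.93-fold and the zinc exporter Slc30a2 by 1.78-fold (adjusted p of 0.0132 and 0.0330). The sensor Mtf1 and the further metallothioneins Mt3 and Mt4 were looked at after their values were seen. With BAPN in ATII cells their log2 changes were 0.052 ± 0.11, -0.035 ± 0.15 and -0.21 ± 0.14 (SE), none of which passed.

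Of 17 tested genes of amine breakdown other than the members, 9 were higher and 3 lower in vehicle ATII cells, against 14.5% and 16.9% of all features, with a median log2 difference of 0.61, beside -0.13 over all features. Smox, which oxidizes spermine, was 3.37-fold higher in ATII cells and Sat1, which acetylates polyamines, 2.38-fold higher (adjusted p of 4.21e-07 and 0.000109 by limma). Hnmt, which methylates histamine, was higher (adjusted p of 0.00128), with a mean of -1.96 in ATII cells and -5.01 in fibroblasts. It was well above background on only 1 of 4 vehicle fibroblast arrays, so no fold is given. Aoc1, the diamine oxidase, was well above background on 3 of 4 vehicle ATII arrays and on 0 vehicle fibroblast arrays, and was at least 1.26-fold higher by the same kind of bound (adjusted p of 0.000296). With BAPN in fibroblasts 1 of 15 tested was higher, Aldh9a1, an aldehyde dehydrogenase (1.27-fold, adjusted p of 0.0412), and 1 lower, Ddo, which oxidizes D-aspartate (2.45-fold, adjusted p of 0.00745).

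Of the lysyl oxidases, the targets of BAPN, 4 of 5 differed between the cell types in vehicle, against 31.3% of all features. Among them, 1 was higher in vehicle ATII cells, Loxl2 (3.12-fold, adjusted p of 0.00402 by limma), and 3 were lower: Loxl3 (3.59-fold), Loxl4 (1.90-fold) and Loxl1 (1.35-fold), with adjusted p-values of 5.22e-08, 0.00283 and 0.0371. With BAPN 0 of 5 passed in either cell type, and the median log2 change was 0.0033 in ATII cells and -0.16 in fibroblasts. Glucocorticoid response genes were followed as known companions of metallothionein induction. Of 10, 2 were higher and 5 lower in vehicle ATII cells, against 14.5% and 16.9% of all features. Cebpd, a transcription factor, was 4.53-fold lower, the kinase Sgk1 3.73-fold lower and the phosphatase Dusp1 2.30-fold lower, while Ddit4, a stress-induced inhibitor of mTOR signalling, was 2.97-fold higher (adjusted p of 8.34e-06, 5.97e-06, 0.000862 and 0.000291). With BAPN in fibroblasts 1 of 10 passed, Fkbp5, a chaperone of steroid receptors, which was 1.51-fold higher (adjusted p of 0.0141). In ATII cells with BAPN 0 genes passed in any of the 5 lists, and the median log2 change was 0.052 for copper genes, -0.0062 for zinc genes, 0.078 for amine genes and -0.066 for glucocorticoid genes.

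Genes with a pattern like that of Mt1 were named by Pearson's r among 17302 features over the 15 arrays. By levels they were Orai3 (0.90), Fbxo24 (0.87) and Spns1 (0.85). By deviations from the group means they were Txndc17 (0.95), Znhit6 (0.94) and Cox7a2 (0.94). These are descriptions over arrays that share slides and cell types.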

How the data were processed

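RNA of 15 samples was measured on single-colour Agilent arrays, 1 array per sample. Per the file headers, the authors deposited one scanner file per array with an intensity for each spot. Agilent Feature Extraction 10.7.3.1 wrote them, subtracting background within the array; values were not scaled between arrays. The authors also deposited a log2 table of these arrays whose columns all have the same sorted values, with a median of 5.96, as quantile normalization gives. The authors' statistical test is not given in the sources used here.

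Here each array's processed signal was put on the log2 scale and its 75th percentile (control probes aside) was subtracted, after outlier spots were dropped and repeated spots averaged. Between 65.2% and 71.2% of 59305 spots were well above background per array, and 0 were saturated. Precision is limited by how few arrays there are. Symbols came from a RefSeq table of assembly GRCm38.p6, and the probe with the highest mean over 15 arrays stood for a gene. Testing required a signal well above background on 3 or more arrays among those compared. The fit used limma 3.58.1 (R 4.3.3), 1 mean for each group over the 15 arrays, 11 residual degrees of freedom and two-sided tests, with Benjamini-Hochberg adjustment over all features at 0.05. The procedure was tested on simulated data with independent noise and no slide, position or replicate effects, so that test does not cover such effects. Alternatives were normexp background, quantile normalization, the deposited table, a position correction, other probe rules and filters, slide and replicate blocks, single slides and leaving out each array. The fourth ATII BAPN array is titled as a replacement and is called replicate 5, and fibroblast BAPN replicate 3 was not analysed here. Named genes were all members, and from each list up to 4 with the largest change by cell type and up to 4 with the smallest adjusted p with BAPN, among those that passed. Genes named for likeness were the 3 with the highest r. The members and lists were chosen with earlier results of these data known. Promoter windows came from RefSeq, GRCm38.p6. Python 3.11.15 read the files and drew the plots.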

Additional observations from a re-analysis of the deposited data

Results flagged for a closer look

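In 36 sets of 4 arrays, 1 set for each of the 12 probes in each group of 4, a lowest or highest array was compared with the gap to its nearest neighbour by Dixon's criterion, which chance meets in about 1 set in 20. It was met in 3 sets. Atp7b in ATII cells with BAPN had its lowest level, -3.69, in replicate 4, far from the other replicates at -2.54 to -2.53. Maoa in ATII cells with vehicle had its highest level, -1.02, in replicate 2, against -1.59 to -1.51 in the others. Maob in ATII cells with vehicle had its lowest level, -2.63, in replicate 1, against -2.49 to -2.48 in the others.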

How the results depend on the processing

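The number of arrays and the slide limit these results. By the probe that stood for the gene, or the mean of its probes, Aoc3, Maob, Slc31a1 and Atp7a in vehicle cells passed under all 21 alternatives, and Aoc3 and Maob passed under all 20 with BAPN. The second Aoc3 probe passed in neither. Members past the threshold for BAPN in fibroblasts (1 as reported) numbered 2 with normexp, 2 with the position correction, 0 with the replicate block and 0 with only the arrays compared, and 0 to 1 when an array was left out. For BAPN in ATII cells (0 as reported) there was 1 on slide 2 alone. For ATII against fibroblasts under BAPN (4 as reported) there were 7 with quantile normalization, 7 with the deposited table, 2 on slide 2 alone, 2 with the replicate block, and 2 to 6 when an array was left out. Why these counts moved was not tested.

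With the replicate block Atp7b in fibroblasts had -1.18 (adjusted p of 0.0819). Same-numbered BAPN and vehicle arrays had correlated deviations with r of -0.046, 0.28 and 0.036 in fibroblasts and 0.41, -0.038 and -0.019 in ATII cells, so not every pair exceeded 0.1 and the samples were not treated as paired. Some values do follow the number. The summed epithelial markers were 4.16, -0.81 and 2.44 in fibroblast BAPN replicates 1, 2 and 4 and 4.00, -0.38 and 2.96 in the same-numbered vehicle arrays, an example chosen after its values were seen. Whether the numbers mark shared cultures was not settled, and Maoa under BAPN had -0.61 (adjusted p of 0.103) with that block.

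Log2 values that changed sign were as follows, and none of these passed. For BAPN in fibroblasts, normexp gave -0.16 for Atox1, -0.073 for Ccs and -0.0016 for Maoa. Quantile normalization gave -0.058 for Mt1 and -0.054 for Atox1, the deposited table -0.057 and -0.054 for the same genes, the position correction -0.082 for Mt1, and the mean of both probes -0.35 for Aoc3. Slide 2 alone gave -0.34 for Mt1, -0.033 for Mt2, -0.13 for Slc31a1 and -0.11 for Atox1. Leaving out an array gave -0.17 to 0.19 for Mt1, -0.084 to 0.30 for Mt2 and -0.056 to 0.17 for Atox1. For BAPN in ATII cells, Slc31a1 was 0.015 with normexp and 0.037 on slide 1, and Aoc3 -0.11 with the mean of both probes, -0.058 on slide 1 and -0.074 to 0.31 without an array. For the difference of effects, Aoc3 was 0.034 with normexp, 0.24 with the mean of both probes, 0.038 on slide 2 and -0.26 to 0.12 without an array. Ccs was -0.0031 with the position correction, -0.15 on slide 1 and -0.084 to 0.056 without an array, Mt2 was -0.12 on slide 1, and Maoa -0.037 to 0.24 without an array. For ATII against fibroblasts in vehicle, Mt2 was -0.0024 with the position correction, -0.014 on slide 2 and -0.061 to 0.068 without an array, and Atox1 0.034 on slide 1 and -0.18 to 0.048 without an array. Under BAPN, Mt1 was -0.32 with the mean of both probes and -0.11 on slide 1, Mt2 -0.072 on slide 1, and Atp7b -0.11 on slide 2.

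Over all features, BAPN in fibroblasts gave 4331 calls as reported, 571 on slide 1, 0 with the replicate block, 2356 with only the arrays compared, and 1187 to 4291 when an array was left out, with 1824 without vehicle replicate 2, 1997 without vehicle replicate 4, 1187 without BAPN replicate 2 and 2002 without BAPN replicate 4. BAPN in ATII cells gave 3180 on slide 2, the difference of effects 122 on slide 1 and 275 without ATII BAPN replicate 4, where 0 were reported for each. ATII against fibroblasts gave 6488 on slide 1 and 4748 on slide 2 in vehicle (10173 as reported), and 1838 on slide 2 under BAPN (9445 as reported).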
